A study of Mus musculus with 2 samples.

Results

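Cwc22, Nmnat1 and Nnt are 3 of the 32285 genes counted in single cells of mouse embryos, and they were chosen by symbol because their levels differed between the libraries of these same counts. Their library ratios over all cells are therefore a description and are given with no test. Cells of E14 embryos without head and viscera had been dissociated and sorted on tdTomato, and sequenced as 1 10x Genomics library for each of 2 genotypes. One library is labelled SRSF2f/f/Myf5-Cre/tdT (library labelled f/f) and the other SRSF2f/w/Myf5-Cre/tdT (library labelled f/w, the littermate control), where f is the floxed and w the wild-type Srsf2 allele. Both genotypes carried Myf5-Cre, a transgene on the promoter of an early myogenic factor, brought in from C57BL/6J mice, and the Rosa26-LSL-tdTomato reporter. Only cells inside the tdTomato gate, meant to hold the Myf5 lineage, were measured, and no purity of the sort is given. The strains of the other parents and the number of embryos per library are not given in the sources used here, and whether the 3 genes differ between the strains of these mice could not be tested.

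The labels of the libraries have to be read with care. Srsf2, the targeted gene, had 33179 UMIs (unique molecular identifiers, 1 per captured transcript) in the library labelled f/f and 18781 UMIs in the library labelled f/w, that is 219 and 153 CPM (counts per 1e6 UMIs summed over the cells concerned), a log2 ratio of 0.52 (0.49 to 0.54). The targeted gene was thus higher in the library labelled as the mutant, in every one of the 10 cell types used, and the summary file of each library and the headings of a supplementary figure carry the opposite genotype. All ratios are log2 of the library labelled f/f over the library labelled f/w, and every direction would turn if the labels were crossed. After quality limits, 12523 cells with 151555303 UMIs (median 10751 per cell) remained in the library labelled f/f and 10345 cells with 122938843 UMIs (median 9480) in the library labelled f/w. The paper, by its own limits, also kept fewer cells of the control than of the mutant, which goes with the titles. The libraries share 74 barcode sequences. With 1 library per genotype there is no test between genotypes. Intervals are exact 95% intervals and cover counting error only, and a difference between libraries or embryos cannot be told apart from one between genotypes. Both libraries held mostly cells with Y-linked UMIs (77.6% and 73.6% of cells), with 16 and 17 UMIs of Xist.

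The products of the 3 genes work in separate places. Cwc22 is a spliceosome protein that binds Eif4a3 and brings this core factor of the exon junction complex to pre-mRNA. Nmnat1 is the nuclear enzyme that makes NAD from nicotinamide mononucleotide and ATP. Nnt is the transhydrogenase of the inner mitochondrial membrane, which uses the proton gradient to make NADPH for peroxide removal. Nnt and Cwc22 are known for strain differences in mice, since C57BL/6J carries a deletion within Nnt and Cwc22 lies in a segment whose copy number varies between strains.

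In the annotation of GRCm38, Cwc22 (ENSMUSG00000027014) is on chr2:77881159-77946375, Nmnat1 (ENSMUSG00000028992) on chr4:149467572-149485202 and Nnt (ENSMUSG00000025453) on chr13:119335448-119408997, all on the minus strand, so that none lies beside another. Cwc22 overlaps Gm13727, which had 4 UMIs, and Nmnat1 overlaps Tmem274 on the opposite strand, which had 0 UMIs. The symbol Nnt has a second entry (ENSMUSG00000116207) at 0 UMIs in both libraries. All 3339 exonic bases of that entry are also exonic in the first, and 3698 bases are exonic in the first only, of which 80 are at its 3′ end. Reads that fit both entries are not counted for either gene, so the level of Nnt is uncertain and its UMIs come from the bases of the first entry alone.

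The promoters of the genes lower in the library labelled f/f are shown because both genes were lower there in every cell type used. Each covers 300 bases (250 before to 50 after a RefSeq start, build GRCm38.p6, minus strand, written 5′ to 3′). That of Cwc22 lies at chr2:77946307-77946606 and that of Nmnat1, at 1 of 2 starts listed, at chr4:149485161-149485460. Capitals mark ACTACAATT in Cwc22 and ACTTCCGG in Nmnat1, 2 motifs chosen after the promoters were read.
Cwc22: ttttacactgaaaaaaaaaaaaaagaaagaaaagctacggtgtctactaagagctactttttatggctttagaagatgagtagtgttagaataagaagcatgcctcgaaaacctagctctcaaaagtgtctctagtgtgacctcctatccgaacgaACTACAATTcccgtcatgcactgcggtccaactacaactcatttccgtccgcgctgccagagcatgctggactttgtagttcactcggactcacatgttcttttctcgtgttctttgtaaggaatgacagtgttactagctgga
Nmnat1: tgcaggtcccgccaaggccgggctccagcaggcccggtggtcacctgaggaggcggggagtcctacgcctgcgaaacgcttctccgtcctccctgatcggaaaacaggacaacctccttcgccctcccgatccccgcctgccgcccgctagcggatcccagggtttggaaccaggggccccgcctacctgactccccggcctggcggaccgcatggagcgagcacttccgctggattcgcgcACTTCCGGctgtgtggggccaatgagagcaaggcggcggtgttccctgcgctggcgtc
Searched on both strands, ACTACAATT was found in 129 of 32851 promoters (0.393%) and ACTTCCGG in 1277 (3.89%). Neither promoter held the motif of the other. GC bases made up 42% of the Cwc22 promoter and 69% of that of Nmnat1.

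Over all kept cells, Cwc22 and Nmnat1 were lower, and Nnt was higher, in the library labelled f/f. Cwc22 had 3291 UMIs in the library labelled f/f and 8418 in the library labelled f/w, or 21.7 (21.0 to 22.5) and 68.5 (67.0 to 70.0) CPM. The log2 ratio was -1.66 (-1.72 to -1.60), a 3.15-fold lower level. Nmnat1, with 462 and 1883 UMIs, was at 3.05 (2.78 to 3.34) and 15.3 (14.6 to 16.02) CPM, a log2 ratio of -2.33 (-2.48 to -2.18) and a 5.02-fold lower level. Nnt went the other way, with 380 and 150 UMIs, 2.51 (2.26 to 2.77) and 1.22 (1.03 to 1.43) CPM, a log2 ratio of 1.04 (0.76 to 1.32) and a 2.05-fold higher level. None of these pairs of intervals overlapped. Of the 14478 genes with at least 200 UMIs, 6.77% were past 2-fold lower and 1.84% past 2-fold higher in the library labelled f/f, and 2.55% had a lower ratio than Cwc22 and 1.02% a lower ratio than Nmnat1. The ratio of Nnt lay just past the 2-fold limit. These shares describe the choice of the genes and nothing is read from them.

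Shares of cells with a UMI restate the same counts on which the genes were chosen, so their direction is no separate sign. At least 1 UMI of Cwc22 was found in 20.7% of the cells labelled f/f and 46.4% of those labelled f/w, with up to 5 and 13 UMIs in a single cell. For Nmnat1 the shares were 3.51% and 15.1%, and for Nnt 2.83% and 1.42%. With each cell thinned to 2000 UMIs the shares were 3.97% (3.63 to 4.34) and 13.6% (12.95 to 14.3) for Cwc22, 0.67% (0.53 to 0.84) and 2.75% (2.43 to 3.099) for Nmnat1, and 0.42% (0.31 to 0.55) and 0.27% (0.18 to 0.40) for Nnt. Thinning left out the cells under 2000 UMIs, and 11914 and 9595 cells remained. The thinned intervals were apart for Cwc22 and Nmnat1 and overlapped for Nnt. They cover counting error over the cells of 1 library each, and cells are not replicates of a genotype.

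Cells were given a type from the UMIs of fixed marker genes, and 10 of 11 types had at least 50 cells in each library. These were skeletal muscle (SKM-like), mesenchymal (Mesen-like), chondrocyte (Chon-like), osteoblast (Osteo-like), neural (Neu-like), Schwann (Sch-like), endothelial (Endo-like), immune (Immu-like), epithelial (Epi-like) and pericyte (Peri-like) cells. A gene kept out of each marker list, such as Actc1 for SKM-like and Emcn for Endo-like cells, had its highest level in its own type for all 11 types. The makeup of the libraries differed, with 2079 SKM-like cells (16.6%) in the library labelled f/f and 106 (1.02%) in the library labelled f/w, while Immu-like cells were 126 (1.01%) and 630 (6.09%). Like Srsf2, the SKM-like share was thus higher in the library titled as the mutant. Myf5 went the same way, with 1803 UMIs in the library labelled f/f and 106 in the library labelled f/w. It is one of the markers that set SKM-like cells and so is no separate sign. The paper, by its own clusters, reported a far smaller share of skeletal muscle cells in the mutant than in the control. That is the reverse of the shares under these titles. A ratio over all cells can move with the makeup, and ratios within types are given for each gene.

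Cwc22 was lower in the library labelled f/f in all 10 types, and its ratio differed little between them. In SKM-like cells it was at 28.6 (26.8 to 30.5) CPM in the library labelled f/f and 99.2 (84.9 to 115) CPM in the library labelled f/w, a log2 ratio of -1.79 (-2.03 to -1.55). Mesen-like cells had 18.3 and 61.4 CPM and a ratio of -1.75 (-1.88 to -1.62). Chon-like cells had 24.9 and 76.7 CPM and a ratio of -1.62 (-1.76 to -1.49). The intervals of these 3 abundant types overlapped. Neu-like cells had 23.0 and 85.0 CPM (-1.88, -2.17 to -1.60), and Endo-like cells 14.6 and 55.5 CPM (-1.93, -2.26 to -1.62). Immu-like cells, with the highest level in the library labelled f/f, had 33.0 and 90.7 CPM (-1.46, -1.84 to -1.10). Ratios in the types with fewer UMIs were -1.75 (-2.26 to -1.26) in Osteo-like, -2.12 (-2.91 to -1.38) in Sch-like, -1.39 (-1.96 to -0.87) in Epi-like and -1.76 (-2.97 to -0.63) in Peri-like cells. CPM intervals of the libraries were apart in 10 of 10 types, and the 10 intervals of the ratio had the range from -1.76 to -1.62 in common. The interval of 9 types held the ratio of all other cells, and that of Mesen-like cells did not (-1.61 in all other cells). The ratio of all other cells is pooled and can itself move with the makeup. Over all kept cells without SKM-like cells, Mesen-like cells included, it was -1.78 (-1.84 to -1.71), inside the Mesen-like interval. That pool was added once the data had been seen and is drawn toward the Mesen-like cells it holds, so it does not test their ratio. Cells without a type had a ratio of -1.76 (-1.89 to -1.63).

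**Figure D1:**
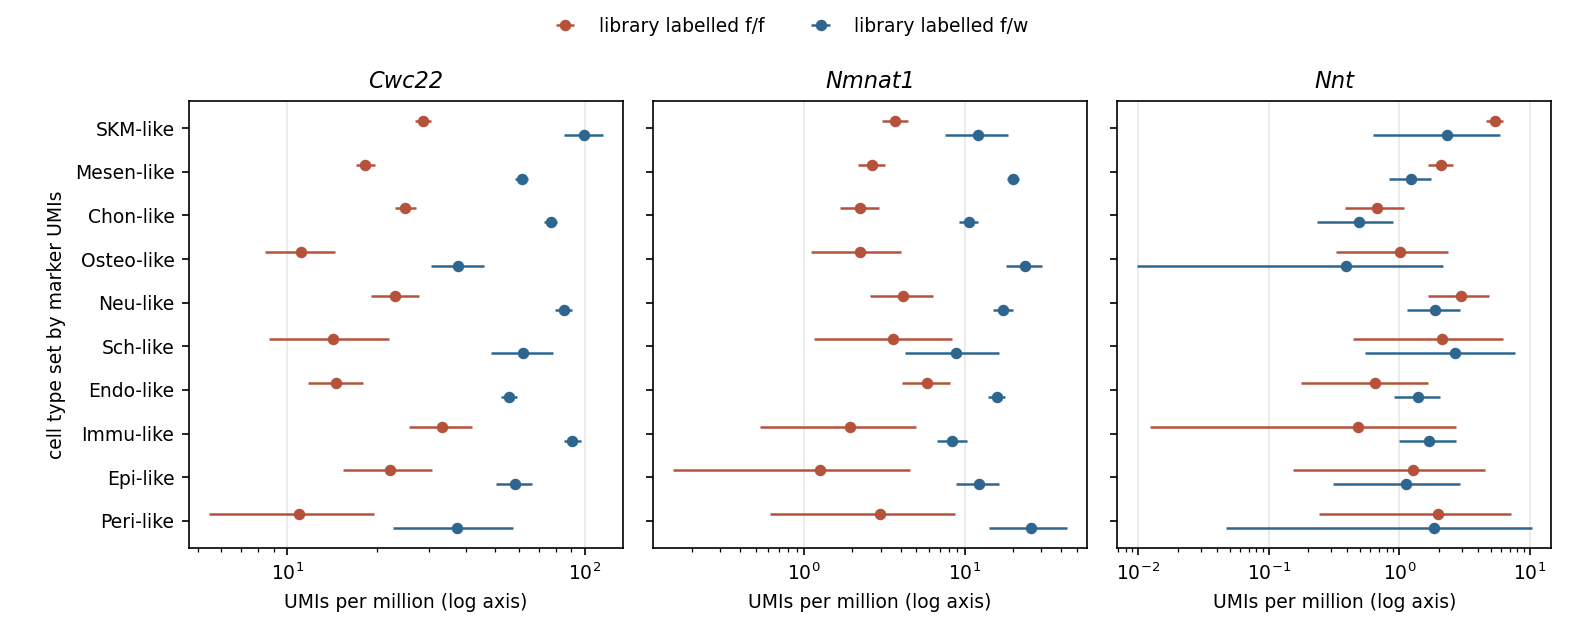
Level of Cwc22, Nmnat1 and Nnt in CPM (horizontal log axis) in 10 cell types (vertical axis), with a point per library and its exact 95% counting interval as a bar. The intervals of the libraries are apart for Cwc22 in 10 of 10 types and for Nnt in 0 of 10.

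The order of the cell types by the level of Cwc22 was similar in both libraries. In the library labelled f/w, SKM-like cells (99.2 CPM) led, followed by Immu-like (90.7 CPM) and Neu-like cells (85.0 CPM), and Osteo-like (37.6 CPM) and Peri-like cells (37.1 CPM) were lowest. In the library labelled f/f, Immu-like and SKM-like cells led, and Osteo-like (11.1 CPM) and Peri-like cells (10.9 CPM) again came last. Neighbours in this order had overlapping intervals, with the exception of Endo-like (55.5 CPM) and Osteo-like cells in the library labelled f/w. Across the 10 types the levels of both libraries had a Spearman rho of 0.89, a description in which the types share the library and differ in depth. The highest level was 3.02 times the lowest in the library labelled f/f and 2.67 times in the library labelled f/w.

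Cwc22 was also lower in each finer group of cells. Its ratio was -1.998 (-2.45 to -1.58) in lymphatic and -1.87 (-2.38 to -1.40) in other Endo-like cells, and -1.25 (-1.72 to -0.81) in mast and -1.49 (-2.34 to -0.72) in macrophage cells of the Immu-like type. Among SKM-like cells, those with Myog, the factor of differentiating myocytes, had 32.0 and 109 CPM, a ratio of -1.77 (-2.08 to -1.45). Within the library labelled f/f, Cwc22 was higher in these cells than in Pax7 cells, the muscle progenitors, by a log2 ratio of 0.33 (0.14 to 0.53). In cells of all types with at least 3 summed UMIs of proliferation genes the ratio was -1.47 (-1.57 to -1.37), and in the other cells -1.78 (-1.87 to -1.69). These intervals did not meet, and the level in the library labelled f/f was 25.1 CPM in proliferating and 20.1 CPM in other cells, against 69.3 and 68.8 CPM in the library labelled f/w. This split pools types whose shares differ between the libraries. Within Mesen-like cells the intervals of proliferating (-1.62, -1.82 to -1.42) and other cells (-1.85, -2.02 to -1.68) overlapped. They also overlapped within Chon-like cells (-1.39, -1.66 to -1.13 and -1.72, -1.88 to -1.55). Within Neu-like cells they met only narrowly (-1.23, -1.81 to -0.68 and -2.08, -2.43 to -1.75). In each of these types the ratio was smaller in size in proliferating cells, and overlap does not show equal ratios.

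Nmnat1 was lower in the library labelled f/f in all 10 types as well, but by different amounts. Mesen-like cells, with the most UMIs of this gene, had 2.66 (2.18 to 3.21) and 19.9 (18.2 to 21.8) CPM, a log2 ratio of -2.91 (-3.22 to -2.60). Endo-like cells had 5.83 (4.08 to 8.07) and 15.8 (14.04 to 17.8) CPM, a ratio of -1.44 (-1.99 to -0.94). SKM-like cells had 3.69 (3.05 to 4.42) and 12.1 (7.49 to 18.5) CPM, a ratio of -1.72 (-2.39 to -0.97). The interval of Mesen-like cells thus met neither that of Endo-like nor that of SKM-like cells, and the 10 intervals had no value in common. Chon-like (-2.25, -2.71 to -1.81) and Neu-like cells (-2.07, -2.80 to -1.42) lay between them. The ratio was furthest from 0 in Osteo-like cells, at -3.41 (-4.48 to -2.47), with 11 and 61 UMIs. Epi-like cells had 2 and 43 UMIs (-3.27, -6.36 to -1.33), Peri-like cells 3 and 14 UMIs (-3.12, -5.56 to -1.28) and Immu-like cells 4 and 84 UMIs (-2.11, -4.02 to -0.70). In Sch-like cells, with 5 and 10 UMIs, a difference was not detectable at this depth (-1.31, -3.21 to 0.37). The interval held the ratio of all other cells in 6 types and not in SKM-like, Mesen-like, Osteo-like and Endo-like cells. As for Cwc22, the ratio of all other cells is pooled and can itself move with the makeup.

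**Figure D2:**
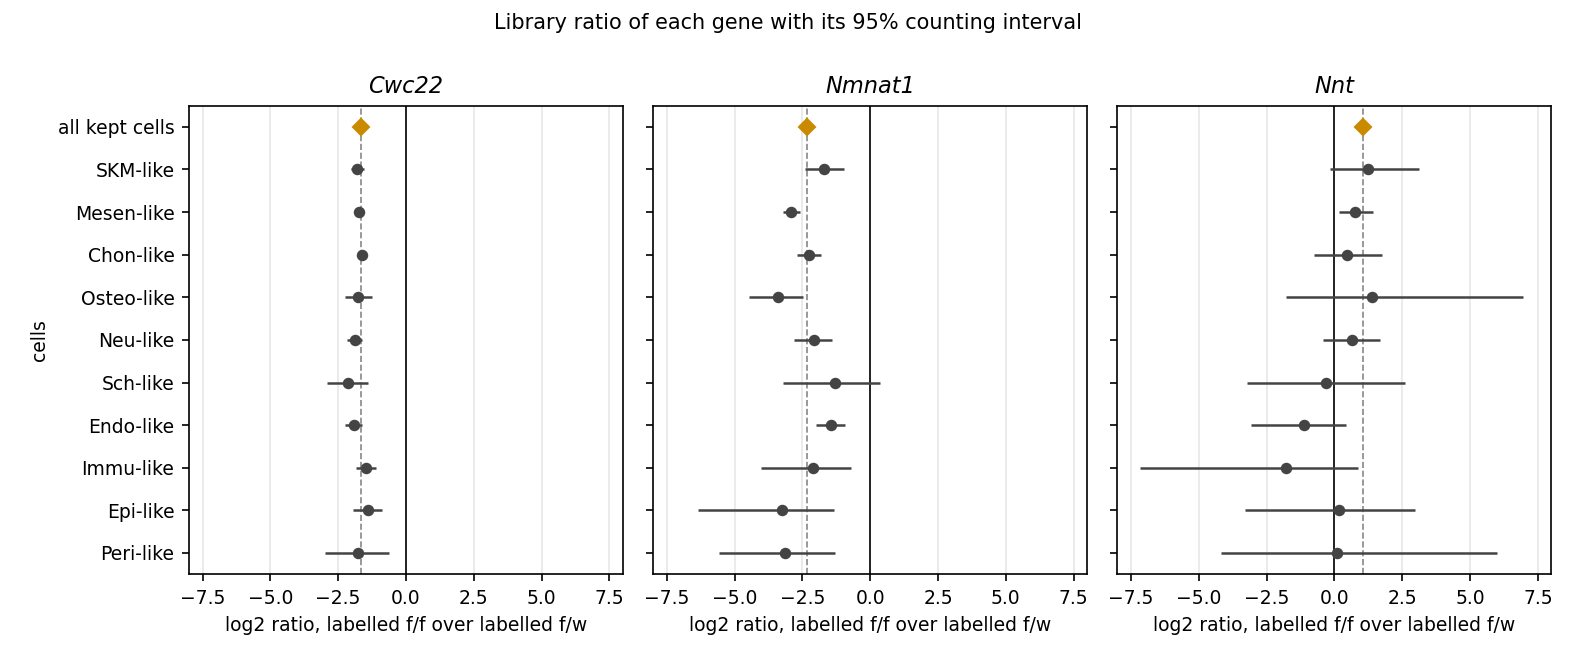
Log2 ratio of the library labelled f/f over the library labelled f/w (horizontal axis) for Cwc22, Nmnat1 and Nnt over all kept cells (diamond, dashed line) and in 10 cell types (points), with exact 95% counting intervals as bars. Points of Cwc22 and Nmnat1 lie left of 0 in all 10 types, while those of Nnt lie on both sides.

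By point values, the levels of Nmnat1 did not follow the same order in the libraries. Epi-like, Peri-like, Immu-like and Sch-like cells had at most 5 UMIs in the library labelled f/f, so their places there were not resolved. Endo-like cells were above Mesen-like cells in the library labelled f/f and below them in the other, with intervals apart in both. Endo-like cells (5.83 CPM) were highest in the library labelled f/f, whereas Peri-like (25.95 CPM), Osteo-like (23.6 CPM) and Mesen-like cells (19.9 CPM) were highest in the library labelled f/w. The Spearman rho of the levels over the 10 types was 0.15, and all neighbours in either order had overlapping intervals. Within the Mesen-like type the ratio was -2.86 (-3.44 to -2.32) in proliferating and -2.90 (-3.29 to -2.54) in other cells. It was -1.32 (-1.98 to -0.72) in lymphatic and -1.50 (-2.58 to -0.56) in other Endo-like cells. Both point values were smaller in size than the ratio of cells outside the Endo-like type (-2.38). The lymphatic interval excluded that ratio, and the interval of the other Endo-like cells held it. Cells without a type, at 3.099 and 16.003 CPM, had a ratio of -2.37 (-2.69 to -2.06).

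Few genes were past 2-fold in every type. Of 8532 genes with at least 10 UMIs in each of the 10 types, 2 were past 2-fold lower in the library labelled f/f in all 10 types (0.0234%), and these were Cwc22 and Nmnat1. No gene was past 2-fold higher in all types (0%). The members had been chosen on this contrast, so that the count describes them. It rests on point values, since the interval of the ratio lay beyond 2-fold in 8 types for Cwc22 and 6 for Nmnat1. Nmnat1 also reached 10 UMIs in Epi-like, Peri-like, Immu-like and Sch-like cells only through the library where it was higher. Over all cells, 78 of the 8532 genes were past 2-fold lower and 56 past 2-fold higher, while 163 genes were below 0 and 397 above 0 in every type. Nnt was not among the genes counted here, since it had at least 10 UMIs in 6 types and as few as 3 in Peri-like cells. The pair was no longer complete under 5% as the mitochondrial limit, where Nmnat1 in Sch-like cells had a ratio of -0.60, or with at least 30 UMIs asked of each type, which Nmnat1 did not reach in the 15 UMIs of Sch-like cells. With cells thinned to 2000 UMIs neither gene had enough UMIs to be counted among 3058 genes. The SD of the ratio over types was 0.21 for Cwc22 and 0.72 for Nmnat1. Among genes within 2-fold of its total UMIs, 26.3% of 3787 had a smaller SD than Cwc22 (median 0.28), and 71.9% of 4227 had a smaller SD than Nmnat1 (median 0.53). No minimum of UMIs per type was asked of these genes, and 0.5 UMI was added to each count. Where a gene had few UMIs in a type, this addition moves its ratio toward a value set by library depth. Nothing is therefore read from these shares.

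**Figure D3:**
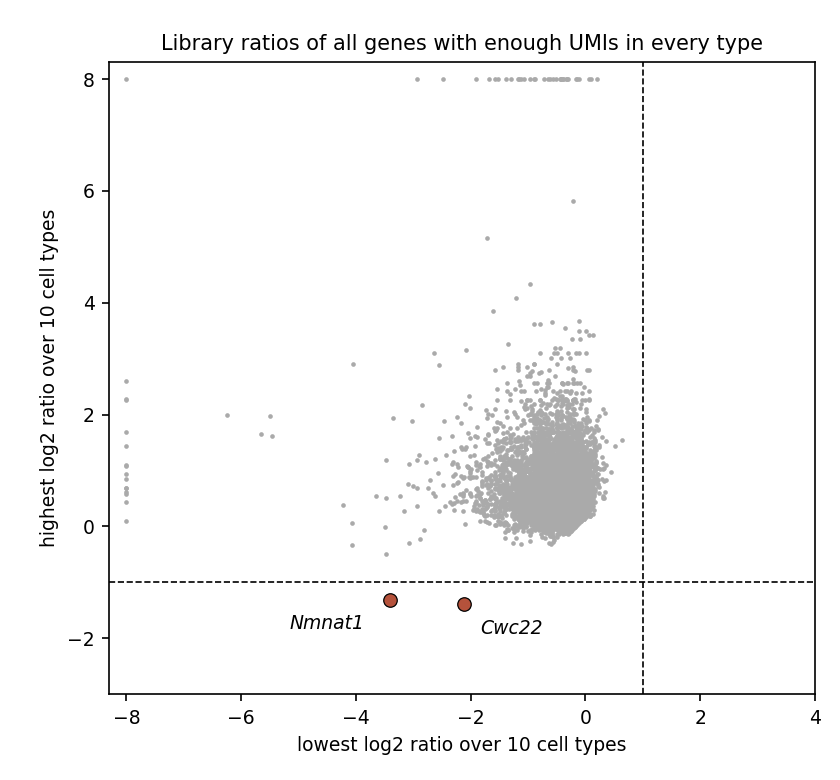
Lowest (horizontal axis) against highest (vertical axis) log2 ratio over 10 cell types for 8532 genes, 1 point per gene, with values of size over 8 (0 UMIs in a library) drawn at that size. Dashed lines mark 2-fold, and Cwc22 and Nmnat1 are the points below the horizontal line.

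The genes whose ratios over the types were nearest to those of Cwc22 were Areg, Ccl21a, Epcam, Hmox1 and Nmnat1, with a root mean square difference of 0.67 to 0.98 over 10 types. The nearest to Nmnat1 were Cwc22, Ccl21a, Nefl, Nefm and Areg, at 0.98 to 1.45. The difference uses the ratios as they stand, so it also ranks genes by how low they are. Cwc22 and Nmnat1 were both chosen on this contrast, so their place in each other's list describes that choice. Unlike Cwc22 and Nmnat1, Areg was not past 2-fold in every type. It encodes a growth factor of the epidermal growth factor family and reached from -3.48 in its lowest type to -0.49 in its highest. Ccl21a, a chemokine of lymphatic endothelium, reached from -3.07 to -0.30. Hmox1, the haem-degrading oxygenase, even turned to 0.73 in one type. For Nnt the nearest were Zfp507, Socs5, B230354K17Rik, Nudcd1 and Farp2, at 0.51 to 0.54, and their ratios over all cells lay between -0.06 and 0.41. The genes compared had at least 10 UMIs in every type, which Nnt itself had in only 6 types. In the other types the 0.5 UMI added to each count moves the ratio of Nnt, and nothing is read from its list.

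The ratio of Nnt over all cells depended on which cells were pooled, and its ratios within types were imprecise. In SKM-like cells Nnt had 172 UMIs in the library labelled f/f and 4 UMIs in the library labelled f/w, or 5.37 (4.60 to 6.24) and 2.31 (0.63 to 5.90) CPM. The log2 ratio there was 1.22, but its interval (-0.16 to 3.11) spanned 0. SKM-like cells held 45.3% of all Nnt UMIs of the library labelled f/f and 2.67% of those of the library labelled f/w. Without SKM-like cells, the ratio over all cells fell from 1.04 to 0.53 (0.22 to 0.85), with 208 and 146 UMIs. This takes out the share of SKM-like cells together with their own ratio, and the parts were not told apart. With every type given equal weight the ratio was 0.31. That value includes types with few Nnt UMIs, among them Immu-like cells with 1 and 17. Mesen-like cells alone had an interval above 0, with 85 and 31 UMIs, 2.09 (1.67 to 2.59) and 1.23 (0.83 to 1.74) CPM and a ratio of 0.77 (0.16 to 1.42). Cells without a type had 75 and 34 UMIs and a ratio of 0.96 (0.36 to 1.59). The CPM intervals of the libraries overlapped in all 10 types.

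In the other types the depth could not show a difference in Nnt. Chon-like cells had 16 and 10 UMIs (0.47, -0.76 to 1.77) and Neu-like cells 15 and 20 UMIs (0.65, -0.42 to 1.69). Endo-like cells went the other way, with 4 and 25 UMIs, 0.65 and 1.399 CPM and a ratio of -1.11 (-3.09 to 0.42). Immu-like cells had 1 and 17 UMIs (-1.80, -7.19 to 0.87). The intervals of these types spanned 0, yet those of Endo-like and Immu-like cells did not hold the ratio of all other cells, 1.12 and 1.11. Those pooled ratios include SKM-like cells. The ratio without SKM-like cells, 0.53, lay inside the interval of Immu-like cells and outside that of Endo-like cells. Sch-like cells had 3 UMIs in each library, and Osteo-like, Epi-like and Peri-like cells at most 5 UMIs in either. The 10 intervals had the range from 0.16 to 0.42 in common, and a difference between types was not tested. The SD of the ratio over types was 0.80, against a median of 1.02 among 3120 genes of like total UMIs. These genes had no minimum of UMIs per type. In types with few UMIs, the 0.5 UMI added to each count moves a ratio toward a value set by library depth. Nothing is therefore read from this comparison.

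Within the library labelled f/f, Nnt was highest in differentiating muscle cells. It was higher in SKM-like cells than in all other cells by a log2 ratio of 1.63 (1.33 to 1.93). In the library labelled f/w the same ratio was 0.94 (-0.96 to 2.32), from 4 UMIs in SKM-like cells. Of the SKM-like cells labelled f/f, those with Myog had 127 UMIs and 8.09 (6.74 to 9.62) CPM, and Pax7 cells had 37 UMIs and 2.59 (1.82 to 3.56) CPM. Nnt was thus higher in Myog than in Pax7 cells by a log2 ratio of 1.64 (1.11 to 2.21), and neither interval of CPM met the other. Nmnat1 did not differ detectably between these cells (0.22, -0.33 to 0.79). In the library labelled f/w, 57 Myog cells had 3 UMIs of Nnt and 36 Pax7 cells had 0 UMIs.

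Genes of the processes in which the 3 proteins work were within 2-fold over all cells in the lists set for them, beside 6.77% of all tested genes past 2-fold lower and 1.84% higher. Lists of this size would hold few such genes at those shares, and nothing particular to them is read from the counts. Of 14 tested genes of NAD synthesis and use, 0 were past 2-fold in either direction, with a median ratio of 0.05 and a range from -0.98 in Sarm1, a NAD-degrading enzyme of axons, to 0.57 in Qprt, an enzyme of NAD synthesis from quinolinate. The paralogues of Nmnat1 had ratios of -0.58 (-0.82 to -0.35) for Nmnat2, of the cytosol and Golgi, and 0.07 (-0.23 to 0.37) for Nmnat3, the mitochondrial form. Nampt, which makes the substrate of Nmnat1, was at 24.3 and 24.0 CPM (0.02, -0.05 to 0.09). All 26 genes of the exon junction complex and late spliceosome were within 2-fold, from -0.39 in Syf2 to 0.40 in Prpf19, with a median of 0.08. Eif4a3, the partner of Cwc22, was at 141 and 149 CPM, a ratio of -0.07 (-0.10 to -0.04). All 15 genes of mitochondrial NADPH and peroxide handling were within 2-fold too, from -0.81 in Glud1, glutamate dehydrogenase, to 0.35 in Idh2, which makes NADPH in mitochondria, with a median of -0.08. Of 7 further genes known for strain differences, 5 were tested and 0 were past 2-fold, from -0.18 in Wdfy1 to 0.30 in Alad, with a median of -0.02. The median of all 14478 genes was -0.02.

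Most genes around the members lay within 2-fold, as did most genes tested (6.77% were past 2-fold lower and 1.84% higher). Within 2 Mb of Cwc22, the median ratio of 16 genes was -0.11, with 1 past 2-fold higher and 2 past 2-fold lower. Ttn, the sarcomere protein titin, had a ratio of 3.86 over all cells. It was 0.25 (0.14 to 0.36) within SKM-like cells, where its level was highest (502 and 423 CPM), and past 2-fold higher in 7 other types, with 2.91 (2.48 to 3.38) in Mesen-like and 3.48 (2.81 to 4.21) in Endo-like cells, at 22.1 CPM or less. The neuronal genes Neurod1 (-1.39) and Ppp1r1c (-1.46) had ratios of -0.11 (-0.33 to 0.11) and -0.09 (-0.25 to 0.07) within Neu-like cells, of which the library labelled f/f had the smaller share. Within 2 Mb of Nnt, the median of 9 genes was -0.03 and 0 were past 2-fold in either direction.

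Near Nmnat1, 3 of 49 genes were past 2-fold lower and 0 higher, with a median of 0.01. Rbp7, a retinoid-binding protein of endothelium and the neighbour whose midpoint lies 0.024 Mb from that of Nmnat1, had 191 and 494 UMIs and a ratio of -1.67 (-1.92 to -1.43). It was -4.24 (-5.49 to -3.20) in Mesen-like cells and -1.53 (-2.32 to -0.64) in SKM-like cells. In Endo-like cells, where its level was highest among the 5 types with at least 10 UMIs, Rbp7 was at 9.07 and 12.1 CPM and its ratio of -0.41 (-0.87 to 0.02) spanned 0. Tnfrsf9, a receptor of immune cells, had a ratio of -3.90 over all cells and -1.38 (-1.58 to -1.18) in Immu-like cells, where its level was highest (111 and 289 CPM). The ratio was further from 0 in SKM-like (-6.08, -8.56 to -4.16) and Mesen-like cells (-4.33, -7.45 to -2.32), at 6.34 CPM or less. The ratio of Tnfrsf9 was below -1 in 7 of the 10 types, though only 6 types had at least 10 UMIs of it. In Endo-like cells it was -0.42 (-1.75 to 0.73). Slc45a1, a sugar transporter, had -1.01 over all cells and 0.08 (-0.45 to 0.59) in Neu-like cells. Within 2 Mb of the engineered loci, the median was -0.07 for 81 genes near Srsf2, with 0 past 2-fold higher and 3 lower. Near Myf5 the median was -0.19 for 9 genes, with 1 past 2-fold higher and 2 lower. Near Gt(ROSA)26Sor it was 0.02 for 31 genes, with 1 past 2-fold higher and 2 lower.

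**Figure D4:**
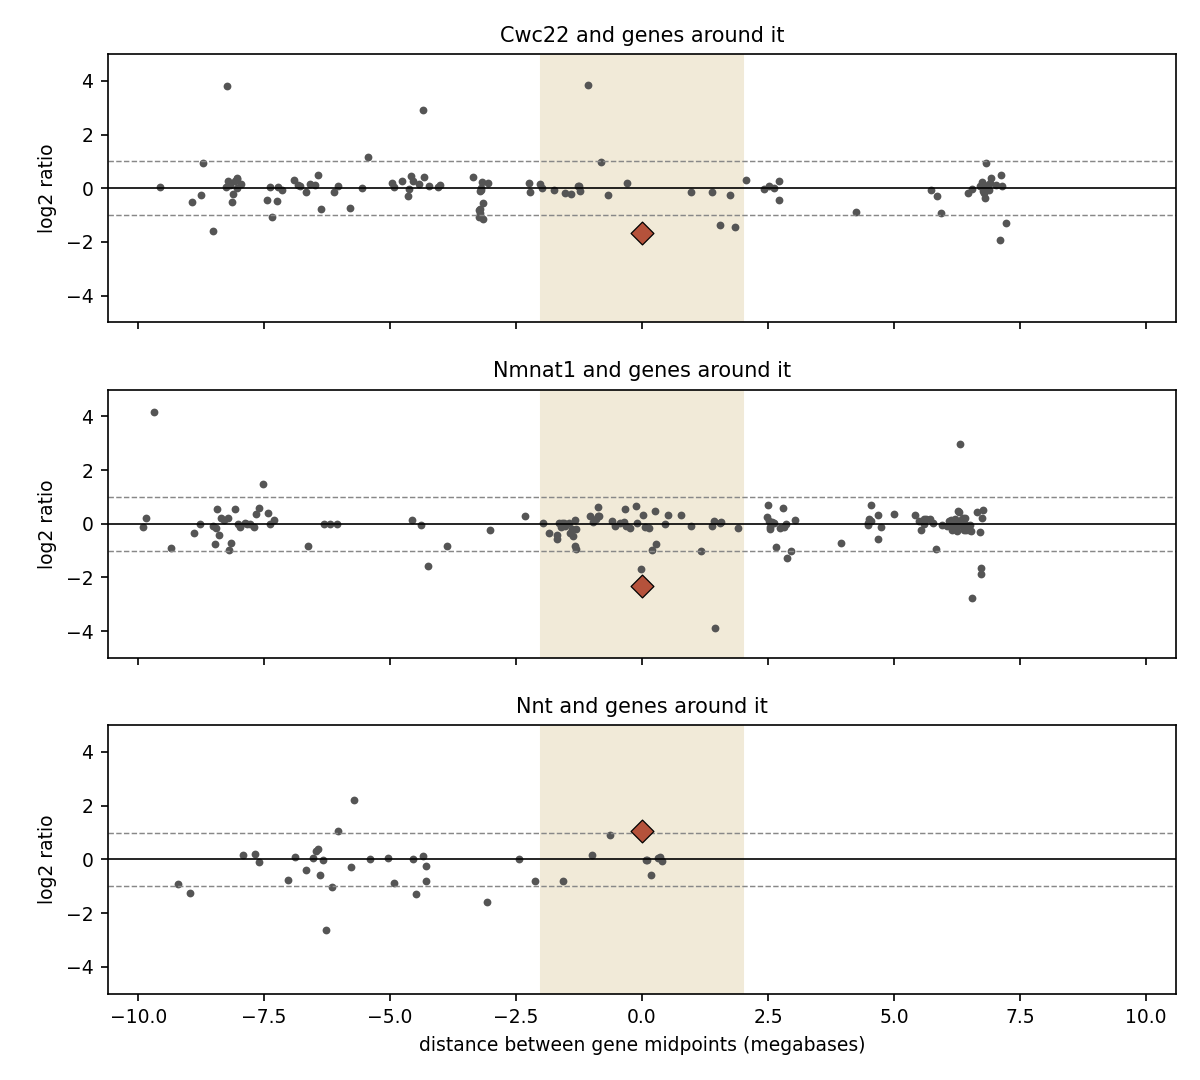
Log2 ratio over all kept cells (vertical axis) of genes within 10 Mb of Cwc22, Nmnat1 and Nnt against the distance between gene midpoints in megabases (horizontal axis), 1 point per gene and a diamond for the member. Shading marks 2 Mb on each side and dashed lines 2-fold, and most neighbours lie near 0.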

How the data were processed

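Per the study's methods, the authors used Cell Ranger to sort reads by barcode, map them to the mouse reference (mm10 per the labels), count UMIs and join the libraries at equalized read depth. The authors deposited these UMI counts for 32285 genes in the barcodes they had called as cells (15268 and 12498), before the quality limits below. The matrix header names Cell Ranger 5.0.0 and the submitters' processing notes Cell Ranger 3.1.0. The authors' summaries list 571426356 reads (library labelled f/f) and 575393483 reads (library labelled f/w).

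Groups follow the sample titles. Barcode suffixes were paired with libraries by the number of cells in the summaries. Barcodes further than 2 SD from their library's mean in log10 UMIs or log10 genes, or with over 10% mitochondrial UMIs, were left out (82.0% and 82.8% of barcodes remained). No doublet caller was run. A cell took a type where its summed marker UMIs reached a fixed limit of 5, 8 or 15 UMIs from at least 2 to 4 markers and led the next type by 2 times. Myog cells had at least 2 UMIs of Myog, and Pax7 cells at least 1 UMI of Pax7 and under 2 of Myog. Sums of UMIs per library were scaled to CPM. Sums have exact Poisson, ratios exact binomial and shares Clopper-Pearson intervals at 95%. The ratio intervals were run on simulated Poisson counts. These hold counting error alone, so the run could not test variation between cells or embryos. For the spread over types and the nearest genes, 0.5 UMI was added to each count.

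The members and lists were chosen with earlier results of these data known. Genes named are the members, Srsf2, Myf5, Gt(ROSA)26Sor, sex genes, and list members past 2-fold or at either end of a list. Also named are genes past 2-fold within 2 Mb of a member, the 5 nearest genes and those past 2-fold in every type. Genes past 2-fold near the engineered loci were counted and not named. Nmnat2, Nmnat3, Nampt and Eif4a3 were named after their values were seen. Coordinates come from GENCODE GRCm38, which held 99.8% of the gene identifiers, and promoters of 2 members from RefSeq. Python 3.11.15, NumPy 2.4.6, SciPy 1.17.1, pandas 2.3.3 and matplotlib 3.10.9 were used.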

Additional observations from a re-analysis of the deposited data

Results flagged for a closer look

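Nnt was higher in the library labelled f/f over all cells, but its ratio had the opposite sign in 3 types, -0.31 in Sch-like, -1.11 in Endo-like and -1.80 in Immu-like cells. The difference between these types and all cells was not tested, since there is 1 library per genotype. The 3 intervals spanned 0, the sign in Sch-like cells turned at a mitochondrial limit of 5% (1.21), and the values rest on 3, 4 and 1 UMIs in the library labelled f/f and 3, 25 and 17 UMIs in the library labelled f/w.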

How the results depend on the processing

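No ratio of Cwc22, Nmnat1 or Nnt over all cells changed sign under the alternatives run, and no ratio in a type whose interval excluded 0 did so. Thinning cells to 2000 UMIs gave ratios over all cells of -1.86 for Cwc22, -2.06 for Nmnat1 and 0.69 for Nnt. With types weighted equally, Cwc22 was at -1.72 and Nnt at 0.31. Cells of no type gave -1.76 for Cwc22. Leaving out SKM-like cells, a setting added once the data had been seen, gave -1.78 for Cwc22 and 0.53 for Nnt. Leaving out SKM-like, Endo-like and Immu-like cells, also added then, gave -1.77 for Cwc22, -2.55 for Nmnat1 and 0.71 for Nnt. The SD over types rose to 0.57 for Cwc22 and 1.43 for Nnt after thinning. Thinning also took the genes past 2-fold from 267 to 130 higher and from 980 to 310 lower, and a minimum of 50 UMIs, which tests more genes, took them to 412 and 1484. The 2 genes lower in every type became 1 at a mitochondrial limit of 5%, 1 at 30 UMIs per type and 0 after thinning, where neither Cwc22 nor Nmnat1 had enough UMIs to be counted among 3058 genes. Of the values within types, 1 of 70 for Cwc22, 3 of 67 for Nmnat1 and 2 of 62 for Nnt left the interval of the value as reported, all after thinning. Causes were not tested, other than where named. Ratios of Nnt whose interval spanned 0 did change sign, to 1.21 in Sch-like and -0.33 in Epi-like cells at a mitochondrial limit of 5%, to -0.83 in Epi-like cells where the leading type had to be 4 times the next, and to -0.72 in Chon-like, -1.95 in Neu-like and -0.35 in Epi-like cells after thinning. Depth limits Nnt most, with 530 UMIs in all. No paired analysis was possible because each genotype has 1 library.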
